A study of Mus musculus with 6 samples.

Results

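The genes of the urea cycle and of amino acid catabolism, a set of 53 genes chosen by symbol, were compared between young and adult mouse liver. All 53 were found among the 32597 genes of the authors' deposited table, each once. Livers came from wild type male C57BL/6 mice, an inbred laboratory strain. Young mice were about 1 month old (3 weeks in the sample titles and 3 to 4 weeks in the age field), and adult mice were 6 months old. Each age had 3 libraries, and each library pooled RNA of 3 mice, so 9 mice stood behind each age. No treatment or genetic change was applied to either group. The deposited table holds 1 FPKM value per gene and age (mapped fragments scaled by transcript length and by library size), with the libraries of an age already combined. No spread between libraries can therefore be given, the depth behind each value is unknown, and replicate error enters only through the test statistic, p-value and q-value (a p-value adjusted for multiple testing) in the authors' deposited table. A gene is called, and said to rise or fall with age, where that q-value was under 0.05.

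The liver takes up most of the amino acids that are not used to build protein and strips them of their nitrogen. The nitrogen is passed by transaminases and glutamate dehydrogenase to ammonia and aspartate, and the urea cycle joins both into urea for excretion by the kidney. The carbon skeletons are broken down by a separate chain of enzymes for each amino acid and enter the citrate cycle, glucose synthesis or ketone body synthesis. Hepatocytes near the portal vein carry most of the urea cycle, while those around the central vein take up the remaining ammonia by making glutamine. Inherited loss of single enzymes of these chains causes disorders such as hyperammonaemia, tyrosinaemia, homocystinuria and maple syrup urine disease.

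None of the 53 was called higher and 4 were called lower in adult liver: Amdhd1, Acmsd, Amt and Bhmt2, with adult levels between 0.663 and 0.706 of the young ones. Of all 11741 genes that the authors tested and that reached 1 FPKM at either age, 7.47% were called, 3.99% as higher and 3.48% as lower. The share called among the 53 genes, 7.55%, lay next to that background and is no property of the set. All 53 passed the filter of 1 FPKM; the lowest, Acmsd, was above 10 FPKM at both ages. Of the 5180 genes with at least 10 FPKM at either age, 7.95% were called and 3.80% were called lower. The median of log2((adult FPKM + 1)/(young FPKM + 1)), the fold scale used throughout, was -0.15 over the 53 genes and 0.0033 over all genes compared. The adult value was within 20% of the young one for 41 of the 53 genes and within 10% for 24 of them. A difference of less than 20% was also found for 66.6% of all genes compared and for 73.5% of those with at least 10 FPKM. In the authors' deposited table the q-value was above 0.5 for 43 of the 53 genes.

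The values were lower in adult than in young liver for 40 of the 53 genes, or 75.5%, against 49.5% of all genes compared. The most abundant genes of the liver as a whole leaned the same way. Of the 960 genes that reached 100 FPKM, 63.0% had a lower adult value and their median log2 fold was -0.09, while 22 of the 32 set genes above that level (68.8%) had a lower adult value, with a median of -0.08. From 500 FPKM upwards the difference was wider, with a lower adult value for 10 of 11 set genes (90.9%, median -0.21) against 60.3% of 194 genes (median -0.09). None of the 32 genes above 100 FPKM was called, against 11.4% of the 960. Between 30 and 100 FPKM, 17 of 20 set genes had a lower adult value, against 53.4% of the 1520 genes in that range. All but one of the 4 called genes lay in that range, or 15% of the 20. Of the 1520 genes, 7.89% were called and 4.01% were called lower. These shares are descriptions, since genes are not replicates. Together the 53 genes made up 2.08% of the FPKM total in young and 1.90% in adult liver, or 15880 and 14526 FPKM. Albumin is listed at 0 FPKM at both ages with the authors' status LOWDATA, so the total leaves it out.

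**Figure D1:**
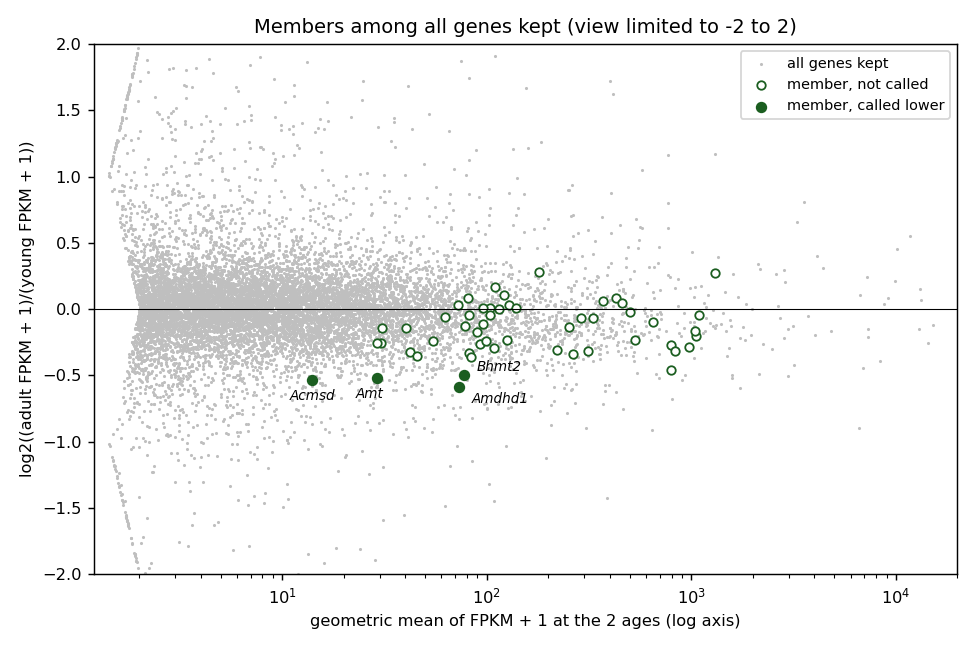
The log2 fold of each gene (vertical axis, adult over young) against its geometric mean of FPKM + 1 over both ages (horizontal log axis), with all 11741 genes compared in grey, of which 182 lie outside the range drawn. The 53 genes of amino acid catabolism lie between -0.59 and 0.28, and the 4 called genes are at the lower edge of that band.

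Amdhd1 encodes imidazolonepropionase, the third enzyme of histidine breakdown, which opens the imidazolone ring. It fell from 88.9 FPKM in young to 58.9 in adult liver, a log2 fold of -0.59. The authors' deposited table gives it p = 0.00015 and q = 0.00494, the smallest of the set. Acmsd encodes the decarboxylase that diverts an intermediate of tryptophan breakdown away from NAD synthesis. It fell from 15.8 to 10.6 FPKM, a log2 fold of -0.54, for which the authors' deposited table gives p = 0.00085 and q = 0.0202. Amt encodes the aminomethyltransferase of the glycine cleavage system, a complex of 4 proteins in mitochondria that splits glycine into carbon dioxide, ammonia and a one-carbon unit. It fell from 33.9 to 23.3 FPKM, a log2 fold of -0.52, for which the authors' deposited table gives p = 0.00055 and q = 0.0143. Bhmt2 encodes a methyltransferase that makes methionine from homocysteine with S-methylmethionine as the donor. It fell from 91.3 to 64.4 FPKM, a log2 fold of -0.50, for which the authors' deposited table gives p = 0.00135 and q = 0.0292. Of these genes only Amdhd1 differed by at least 1.5-fold, which 14.3% of all genes compared did in either direction. RNA was taken from whole liver, where fewer cells of a type and less RNA per cell cannot be told apart.

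Promoters of Amdhd1, Bhmt2 and Amt are shown because these genes of the set changed, together with those of Hal, which lies next to Amdhd1 and codes for the first enzyme of the same pathway, and of Bhmt, the isoenzyme next to Bhmt2. Each window runs from 250 bases before to 50 bases after the RefSeq gene start on GRCm38.p6 and is written 5′ to 3′ on the strand of the gene. Except in Bhmt2, capitals mark every match of 7 searched motifs on either strand: TATAAA (the TATA box), GGGCGG (the GC box), CACGTG (the E-box), TGACGTCA (the cyclic AMP response element), TTGCNNAA (a C/EBP motif), CAAAGTCCA (an HNF4 motif) and AGGTCA (the core motif of nuclear receptors). In Bhmt2 the capitals mark the bases that also belong to the promoter window of Dmgdh on the other strand.
Amdhd1 (chr10:93539984-93540283, minus strand): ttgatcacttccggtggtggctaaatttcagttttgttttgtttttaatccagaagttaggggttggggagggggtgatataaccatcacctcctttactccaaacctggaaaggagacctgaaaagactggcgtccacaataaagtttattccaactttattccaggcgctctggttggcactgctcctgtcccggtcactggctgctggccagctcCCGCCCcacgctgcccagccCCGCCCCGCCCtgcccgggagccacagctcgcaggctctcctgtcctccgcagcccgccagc
Hal (chr10:93488518-93488817, plus strand): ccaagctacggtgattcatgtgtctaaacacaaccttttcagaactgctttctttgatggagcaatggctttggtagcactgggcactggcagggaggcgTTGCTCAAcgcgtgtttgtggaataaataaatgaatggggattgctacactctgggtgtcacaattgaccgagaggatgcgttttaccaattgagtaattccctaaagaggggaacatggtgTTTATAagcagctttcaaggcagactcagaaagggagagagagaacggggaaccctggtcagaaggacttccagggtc
Bhmt2 (chr13:93674253-93674552, minus strand): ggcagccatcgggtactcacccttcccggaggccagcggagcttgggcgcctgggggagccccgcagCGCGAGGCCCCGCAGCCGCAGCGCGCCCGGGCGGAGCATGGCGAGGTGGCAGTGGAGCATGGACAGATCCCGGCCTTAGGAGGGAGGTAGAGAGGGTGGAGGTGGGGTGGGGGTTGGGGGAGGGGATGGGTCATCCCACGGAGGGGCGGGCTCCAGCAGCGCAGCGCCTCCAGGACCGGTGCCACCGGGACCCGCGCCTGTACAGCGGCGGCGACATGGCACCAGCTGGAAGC
Bhmt (chr13:93637709-93638008, minus strand): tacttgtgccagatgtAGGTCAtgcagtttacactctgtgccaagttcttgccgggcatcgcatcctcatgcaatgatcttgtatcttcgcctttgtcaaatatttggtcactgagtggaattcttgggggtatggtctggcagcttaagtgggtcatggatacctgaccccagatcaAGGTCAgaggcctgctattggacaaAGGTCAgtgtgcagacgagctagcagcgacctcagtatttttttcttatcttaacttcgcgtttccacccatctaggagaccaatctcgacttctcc
Amt (chr9:108296655-108296954, plus strand): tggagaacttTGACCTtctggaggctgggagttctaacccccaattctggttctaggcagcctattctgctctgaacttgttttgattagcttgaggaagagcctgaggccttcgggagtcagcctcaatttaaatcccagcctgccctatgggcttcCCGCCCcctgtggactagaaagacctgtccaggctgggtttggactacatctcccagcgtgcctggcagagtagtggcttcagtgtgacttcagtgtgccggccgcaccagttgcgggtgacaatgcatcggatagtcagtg

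The Amdhd1 window held 3 matches of the GC box, of which 2 overlap by 1 base, and no TATA box. The Hal window held a TATA box and a C/EBP motif. The Bhmt2 window had 73.7% G and C and 26 CG pairs, against 48.0% and 8 in Bhmt, whose window held 3 nuclear receptor core motifs. The window of Amt held 1 such core motif. RefSeq windows were found for 43 of the 53 genes, and only the first listed window of each gene was counted, here and among all genes. A nuclear receptor core motif was present in 16 of these 43 windows, or 37.2%, and in 16% of the windows of 27025 genes. For the GC box the shares were 44.2% and 35.9%, for the TATA box 9.3% and 14.2%, for the E-box 6.98% and 7.24%, and for the C/EBP motif 4.65% and 10.8%. No set window held the cyclic AMP response element or the HNF4 motif, which 1.88% and 0.477% of all windows held. A match describes letters and is not a binding site.

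Pairs of called and uncalled genes lay side by side in the genome. On GRCm38, Bhmt2 spans 93655720 to 93674302 on chromosome 13, on the minus strand, and Dmgdh starts 130 bases away at 93674433 on the plus strand, so that 233 bases of their promoter windows are the same DNA. Dmgdh encodes dimethylglycine dehydrogenase, which removes a methyl group from the dimethylglycine that betaine-dependent methylation of homocysteine leaves behind. It stood at 126 FPKM in young liver and 128 in adults, for which the authors' deposited table gives q = 0.997, while Bhmt2 fell. Bhmt, at 93616891 to 93637961 on the same chromosome and strand as Bhmt2, encodes betaine-homocysteine methyltransferase and stood at 1068 and 877 FPKM, for which the authors' deposited table gives q = 0.639. Whether the changes of these neighbours differ from each other was not tested. Hal and Amdhd1 are also adjacent, on chromosome 10 at 93488768 to 93519304 and at 93523338 to 93540033, on opposite strands with 4033 bases between their ends. Both fell, Hal from 169 to 101 FPKM. The gene spans given here do not overlap. Reads from transcript ends beyond these spans or from near-identical copies could still be shared between such neighbours. The sources used here do not say whether counting used strand.

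In the urea cycle none of the 7 genes was called, and 6 had a lower adult value. Nags, which makes the N-acetylglutamate that activates carbamoyl phosphate synthetase, was at 32.0 FPKM in young liver and 26.7 in adults. Cps1, the mitochondrial carbamoyl phosphate synthetase that commits ammonia to the cycle, was at 926 and 673 FPKM. That was the largest difference of the set in FPKM, with a log2 fold of -0.46, for which the authors' deposited table gives p = 0.0357 and q = 0.307. Otc, the X-linked ornithine transcarbamylase, was at 416 and 441 FPKM. Asl, argininosuccinate lyase, was at 246 and 198 FPKM, and Arg1, the arginase that releases urea, at 876 and 724. Among the carriers, Slc25a15, which brings ornithine into mitochondria, was at 119 and 96.8 FPKM, and Slc25a13, citrin, which exports aspartate, was at 81.8 and 79.2. The 7 genes had a median log2 fold of -0.27 and summed to 2696 FPKM in young liver and 2239 in adults. Ass1, argininosuccinate synthetase, is the enzyme of the cycle outside the set, and it fell from 1019 to 637 FPKM, for which the authors' deposited table gives q = 0.0123. The set itself thus leaves out the 1 enzyme of the cycle that was called.

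**Figure D2:**
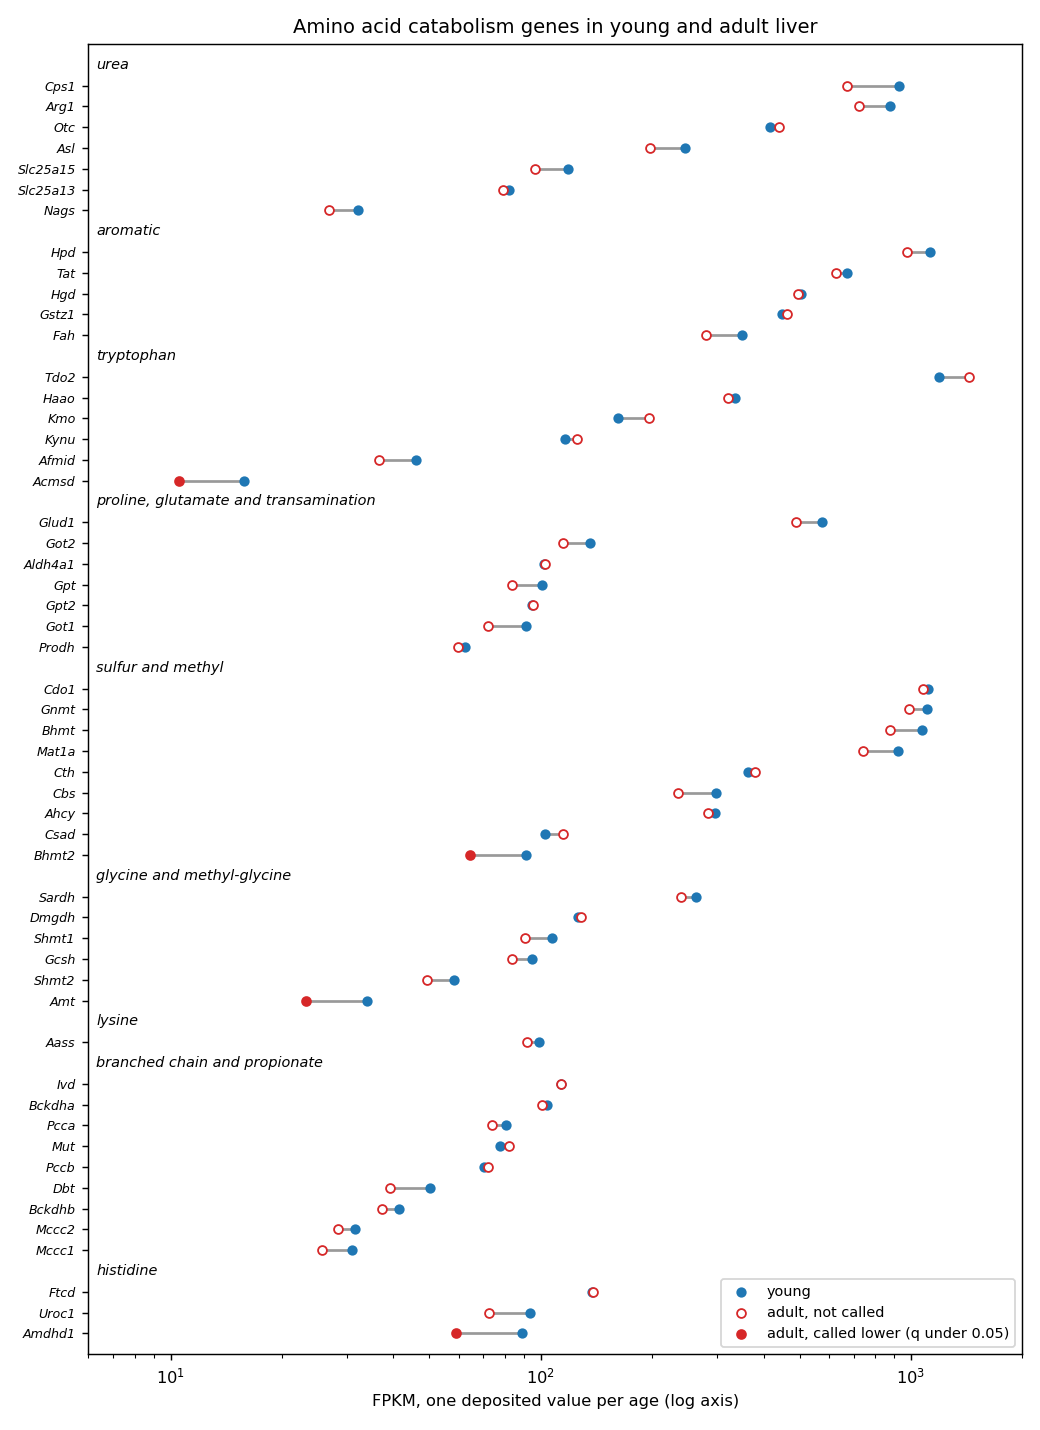
FPKM (horizontal log axis) of each of the 53 genes in young (blue) and adult liver (red, filled where called), 1 deposited value per age without an error, grouped by sub-pathway and ordered by young level. Most pairs nearly coincide, and the 4 filled points, from Acmsd at 10.6 to Bhmt2 at 64.4 FPKM in adult liver, sit to the left of their young values.

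No gene of tyrosine breakdown was called among 5. Tat, tyrosine aminotransferase, the first step, was at 673 FPKM in young liver and 628 in adults. Hpd, which makes homogentisate, was at 1127 and 977 FPKM, and Hgd, which opens its ring, at 503 and 496. Gstz1, maleylacetoacetate isomerase, was at 448 and 463 FPKM. Fah, fumarylacetoacetate hydrolase, whose loss causes tyrosinaemia, was at 349 and 279 FPKM, a log2 fold of -0.32 for which the authors' deposited table gives p = 0.0434 and q = 0.345. The median log2 fold of these 5 genes was -0.10.

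Tryptophan genes had the widest range of folds of any sub-pathway, from -0.54 to 0.28, with 1 of 6 called lower and 3 of 6 at a higher adult value. Tdo2, tryptophan dioxygenase, which opens the indole ring, had the highest level of the set at either age, 1188 FPKM in young liver and 1433 in adults, where the authors' deposited table gives q = 0.845. Afmid, the formamidase of the next step, was at 46.0 and 36.5 FPKM, a log2 fold of -0.32 for which the authors' deposited table gives p = 0.117 and q = 0.585. Kmo, kynurenine monooxygenase, was at 162 and 196 FPKM, Kynu, kynureninase, at 117 and 125, and Haao, which makes the precursor of quinolinate, at 335 and 320. Acmsd competes for that precursor, since its decarboxylation keeps it from becoming quinolinate and NAD. Acmsd was the least abundant gene of the set at both ages, at 0.0470 and 0.0330 of the level of Haao. Qprt, which takes quinolinate on to NAD and is outside the set, was at 101 and 89.4 FPKM, for which the authors' deposited table gives q = 0.761.

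In the histidine chain the first 3 enzymes had adult to young ratios of 0.597, 0.776 and 0.663, and the last one of 1.00. The first is Hal, histidine ammonia-lyase, which is outside the set and fell. Uroc1, urocanate hydratase, was at 93.4 FPKM in young liver and 72.5 in adults, a log2 fold of -0.36 for which the authors' deposited table gives p = 0.0173 and q = 0.192. Amdhd1 fell, as given above. Ftcd, which passes the formimino group to folate, was at 138 FPKM at both ages, for which the authors' deposited table gives q = 0.997.

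Within the glycine cleavage system, 2 of the 4 genes fell, 1 in the set and 1 outside it. Of all genes compared, 7.47% were called and 3.48% were called lower. Both genes of the system outside the set were picked with results of these data known. The decarboxylase of the system, Gldc, is outside the set and fell from 51.7 to 28.3 FPKM. Amt of the set fell. Gcsh, the lipoyl carrier protein of the complex, was at 94.5 and 83.7 FPKM, and Dld, the dehydrogenase it shares with other complexes and also outside the set, was at 104 and 99.2. The authors' deposited table gives q = 0.774 for Gcsh and 0.996 for Dld. The serine hydroxymethyltransferases, which exchange serine and glycine, were at 107 and 90.6 FPKM for the cytosolic Shmt1 and at 58.3 and 49.2 for the mitochondrial Shmt2. Sardh, sarcosine dehydrogenase, which turns sarcosine into glycine, was at 263 and 239 FPKM. The 6 genes of the group had a median log2 fold of -0.21, with 1 called.

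**Figure D3:**
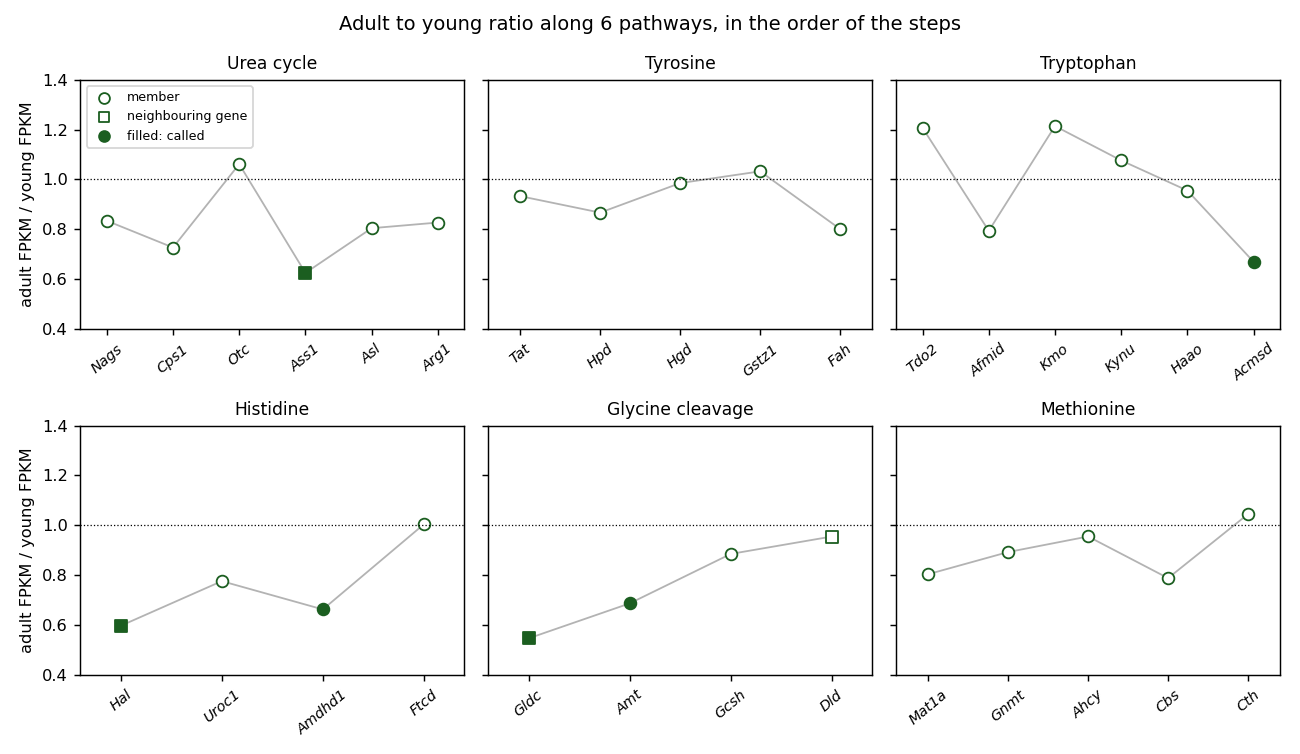
Ratio of adult to young FPKM (vertical axis, 1 deposited value per age) for the genes of 6 pathways in the order of their steps, with circles for genes of the set, squares for genes outside it and filled symbols where called. The filled symbols are Ass1, Acmsd, Hal, Amdhd1, Gldc and Amt, at ratios from 0.547 to 0.687.

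In sulfur and methyl metabolism 1 of 9 genes, Bhmt2, was called. Mat1a, which makes S-adenosylmethionine in hepatocytes, was at 925 FPKM in young liver and 743 in adults, a log2 fold of -0.31 for which the authors' deposited table gives p = 0.122 and q = 0.598. Gnmt, which spends it on glycine, was at 1105 and 986 FPKM, and Ahcy, which splits the resulting adenosylhomocysteine, at 296 and 282. Cbs, which condenses homocysteine with serine, was at 298 and 235 FPKM. Its log2 fold of -0.34 was close to that of Uroc1, but the statistic in the authors' deposited table was -0.38 for Cbs and -1.34 for Uroc1, so folds of one size did not weigh alike in the authors' test. The p-value and q-value of Cbs there were 0.300 and 0.825. Cth, which releases cysteine, was at 362 and 379 FPKM. Cdo1, which oxidizes cysteine, was at 1111 and 1075 FPKM, and Csad, which leads on towards taurine, at 103 and 115. The median log2 fold of the 9 genes was -0.16, and their sum was 5358 FPKM in young liver and 4756 in adults, the largest of the sub-pathways.

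No gene of branched chain, propionate or lysine breakdown was called. The median log2 fold of the 9 branched chain and propionate genes was -0.13. The dehydrogenase complex of branched chain keto acids has its subunits Bckdha at 104 and 101 FPKM, Bckdhb at 41.3 and 37.3, and Dbt at 50.2 and 39.1. Dbt, the acyltransferase core, had a log2 fold of -0.35, for which the authors' deposited table gives p = 0.0204 and q = 0.215. Ivd, which acts next on leucine, was at 113 FPKM at both ages, for which the authors' deposited table gives p = 0.996. The subunits of methylcrotonyl-CoA carboxylase were at 30.8 and 25.7 FPKM for Mccc1 and at 31.5 and 28.4 for Mccc2. Those of propionyl-CoA carboxylase were at 80.7 and 73.8 FPKM for Pcca and at 70.5 and 72.1 for Pccb. Mut, the vitamin B12-dependent mutase that ends the chain, was at 77.8 and 82.3 FPKM. Aass, which opens lysine breakdown, was at 98.9 and 91.6 FPKM.

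Proline, glutamate and transaminase genes held no called gene among 7, with a median log2 fold of -0.23. Glud1, glutamate dehydrogenase, was at 575 FPKM in young liver and 488 in adults. Prodh, proline dehydrogenase, was at 62.6 and 59.9 FPKM, and Aldh4a1, which finishes the conversion of proline to glutamate, at 102 and 103. The cytosolic aspartate aminotransferase Got1 was at 91.4 and 72.2 FPKM, a log2 fold of -0.34 for which the authors' deposited table gives p = 0.0653 and q = 0.434, and the mitochondrial Got2 was at 136 and 115. The cytosolic alanine aminotransferase Gpt was at 101 and 83.8 FPKM, and the mitochondrial Gpt2 at 94.8 and 95.2. Of the isoenzymes outside the set, Arg2 was under 1 FPKM at both ages, and Prodh2, hydroxyproline dehydrogenase, was at 87.7 and 79.7. Over the whole set, the 27 genes of cytosolic enzymes had a median log2 fold of -0.24 with 3 called (11.1%). The 26 genes of mitochondrial proteins had one of -0.13 with 1 called (3.85%). Of all genes compared, 7.47% were called and 3.48% were called lower. No test compared the 2 compartments.

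Genes of the same pathways outside the set changed in both directions. Of 92 listed, 81 passed the filter, and 7 were called higher and 8 lower, with a median log2 fold of -0.12. That is 18.5% called, against 7.47% of all genes compared and 7.55% of the set, as a description of a list chosen with results known. Counted with the set, 7 of 134 genes were called higher and 12 lower, or 14.2% in all. Beside Ass1, Hal and Gldc, 5 such genes fell. The glyoxylate and alanine transaminase Agxt fell from 205 to 129 FPKM, and the threonine pathway enzyme Gcat from 48.0 to 31.3. The kynurenine aminotransferase Ccbl1 fell from 83.9 to 53.1 FPKM. The sulfide oxidation enzyme Ethe1 fell from 56.9 to 31.7 FPKM, and the sulfurtransferase Mpst from 64.9 to 46.0. Those that rose were Oat, ornithine aminotransferase, from 236 to 729 FPKM, Glul, glutamine synthetase, from 216 to 317, Nnmt, nicotinamide methyltransferase, from 40.1 to 103, Mat2a, from 28.6 to 42.2, and the aminoadipate and kynurenine aminotransferase Aadat, from 68.1 to 98.1. The histamine genes Hdc, from 0.946 to 1.90 FPKM, and Hnmt, from 24.5 to 38.1, rose as well; Hdc passed the filter only through its adult value. Sds, serine dehydratase, was at 69.8 and 61.5 FPKM, for which the authors' deposited table gives q = 0.962. For the called genes named here, the authors' deposited table gives q between 0.00189 and 0.0452.

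**Figure D4:**
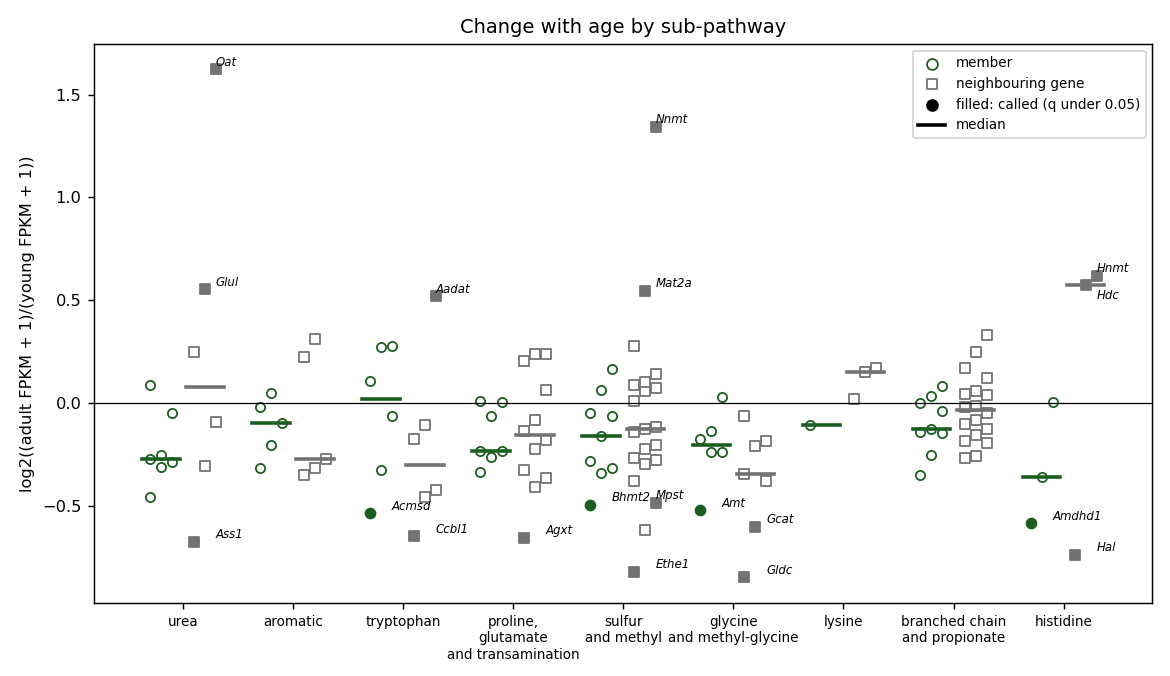
The log2 fold of each gene (vertical axis, adult over young FPKM with 1 added to both) by sub-pathway, with circles for the 53 genes, squares for the 81 neighbouring genes, filled where called, and bars at the medians. The circles stay between -0.59 and 0.28, while the squares reach from -0.85 for Gldc to 1.62 for Oat.

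Of the regulators and amino acid transporters of the same pathways, 5 of 34 were called, or 14.7%, against 7.47% of all genes compared. Of 17 regulators none was called higher and 1 lower, the coactivator Ppargc1a, from 2.48 to 1.48 FPKM. Klf15, a transcription factor that drives amino acid catabolism in liver, was at 46.3 and 49.8 FPKM, for which the authors' deposited table gives q = 0.955. Of 17 amino acid transporters 3 were called higher and 1 lower, or 23.5% in all. The arginine and lysine transporter Slc7a2 rose from 46.7 to 98.0 FPKM, the glutamate transporter Slc1a2 from 22.2 to 53.0 and the aromatic amino acid transporter Slc16a10 from 14.7 to 21.03. The neutral amino acid transporter Slc43a1 fell from 3.78 to 2.06 FPKM.

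Several marker groups moved between the same libraries, and their part in the results above was not tested. The markers Hal, Ass1, Glul, Oat and Slc1a2 also belong to the lists above, so their calls repeat those results and add nothing to them. The uncalled markers Sds, Gls2 and Hnf4a belong to those lists too, so their values are also counted again. Of 8 markers of periportal hepatocytes 3 fell (Hal, Ass1 and the cadherin gene Cdh1). The adult value was lower for 7 of the 8 and higher for Pck1, at 465 and 639 FPKM. Pck1 was not called, and the authors' deposited table gives it q = 0.183. The summed level of the list was 2863 FPKM in young liver and 2489 in adults. Of 7 pericentral markers compared 4 rose (Glul, Oat, Slc1a2 and Lgr5), and all 7 had a higher adult value. The 7 summed to 3387 FPKM in young liver and 5549 in adults. The largest part of both sums was Cyp2e1, at 2631 and 4140 FPKM. It was not called, and the authors' deposited table gives it q = 0.0826. None of 6 general hepatocyte markers compared was called. The adult value was lower for 4, among them Ttr at 8081 and 5951 FPKM. It was higher for 2, Apob at 986 and 1106 FPKM and Hnf4a at 106 and 112. Markers of cholangiocytes, endothelial and stellate cells and erythroid genes fell in 2 genes each, of 3, 5, 5 and 3 compared. Those of T and NK cells rose in 3 of 3, of B cells in 2 of 3 and of Kupffer cells in 2 of 4. The uncalled erythroid gene Alas2 was higher in adults, at 55.3 and 73.2 FPKM, for which the authors' deposited table gives q = 0.368. The uncalled Kupffer cell marker Clec4f was lower, at 79.6 and 57.7 FPKM, with q = 0.291 there. Vsig4 of Kupffer cells, at 38.8 and 38.7 FPKM, and Cd79b of B cells had slightly lower adult values, each with q = 0.997. All compared markers of cholangiocytes, endothelial and stellate cells had a lower adult value. The called genes of T and NK cells (Cd3g, Trac and Nkg7) and of cholangiocytes (Krt19 and Krt7) reached 1 FPKM only at the age where they were higher, so the filter favoured a difference and their counts carry no weight. Over all lists this held for 9 of the 30 called markers, the others being Acta2 of stellate cells and the clock genes Dbp, Per2 and Npas2. Of 14 clock genes 5 rose and 3 fell, or 57.1% called against 7.47% of all genes compared, with 3 of these calls favoured by the filter. No source used here gives the time of day at sacrifice. Kidney markers were under 0.01 FPKM at both ages. Of the pancreas markers, Cela1 was at 21.9 and 20.9 FPKM and was not called. Prss1 was at 0 FPKM at both ages and Cpa1 at 0.00495 and 0.0131.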

How the data were processed

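Liver RNA of 6 libraries, 3 per age, (Trizol extraction, integrity number at least 8) was sequenced after TruSeq preparation on a NextSeq to an average near 30000000 reads, per the labels' protocols. TopHat2 2.0.11, Cufflinks 2.2.1 and Cuffdiff are named for GRCm38, per the submitters' processing notes; no source used here gives the annotation release. Per age and gene, the authors deposited 1 FPKM value. The deposited table also holds the authors' log2 fold change and test statistic, both used here only as a score, and a p-value and a q-value, whose adjustment method no source used here gives. The smallest deposited p-value is 5e-05. The authors' test rests on the spread between pools, not between single mice, and nothing in the labels says that the pools were processed separately.

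Genes with the status OK and at least 1 FPKM at either age were kept. Folds were computed as log2((adult FPKM + 1)/(young FPKM + 1)), which understates changes of low genes, with Python 3.11.15, pandas 2.3.3 and numpy 2.4.6. No test between libraries was possible, so the authors' q-values served as calls. All 53 gene identifiers were found in GENCODE M21 under the same symbol. The 53 genes, the lists beside them and the motifs were chosen with earlier results of these data known. Every gene of the set is named, with fold, p and q for the called ones and the 12 largest folds; from the neighbouring, regulator and transporter lists the called genes are named, and Ass1, Oat, Gldc, Hal, Sds, Glul and Klf15 in every case, while 1 further gene under this rule and 1 promoter window are not reported here; the isoenzymes Arg2 and Prodh2 belong to that rule, and Qprt, Dld, Ttr and the other marker genes given by name were added after their values were seen. The calling routine was tested on simulated data.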

Additional observations from a re-analysis of the deposited data

How the results depend on the processing

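No library could be left out in turn and no spread could be computed, because the values are combined per age. No paired analysis was possible because the table holds no value per library, although the titles number the libraries 1 to 3 at both ages. The count of called genes of the set, 0 higher and 4 lower, was the same with no minimum on FPKM, with a minimum of 5 FPKM, with q-values under 0.1, and with the authors' p-values adjusted by Benjamini-Hochberg over the genes kept. With a further minimum of 1.5-fold, 1 gene of the set was called lower (Amdhd1), and 4 neighbouring genes were called higher and 7 lower. Counted jointly with the neighbouring genes, an alternative chosen after seeing the data, 7 genes were called higher and 12 lower. With a minimum of 5 FPKM, 293 of all genes were called higher and 253 lower, and 0 of the regulators and transporters lower, where the authors' q-values would call 2 with the lower minimum; both of these are under 5 FPKM. Pseudocounts of 0.1 or 0, centring on the median of all genes and rescaling each age to 1000000 FPKM moved no gene of the set by more than 0.042 on the log2 scale, and all medians of sub-pathways kept their sign. Rescaling changed the sign of Ftcd and Gpt2, whose values are nearly equal at both ages.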
